A study of Mus musculus with 3 samples.

Results

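The Polycomb group genes described here are 10 subunits of the 2 Polycomb repressive complexes, taken at every probe that the platform annotation gives their symbols. They have 15 of the 25697 probes on the array and are 10 of the 16593 genes with a symbol there. The series holds 3 Illumina mouse-8 BeadChips hybridised with RNA of mouse 2-cell embryos (F1B6C3H in the labels), 2 of 2-cellNSN embryos (2-cellNSN-a and 2-cellNSN-b) and 1 of 2-cellctrl embryos. 2-cellNSN embryos came from MII oocytes matured in culture from ovarian oocytes whose nucleolus lacks a ring of heterochromatin, which the labels call developmentally incompetent, and 2-cellctrl embryos from ovulated, competent MII oocytes. By the methods, the NSN oocytes were taken from PMSG-primed females of 4 to 6 weeks, all MII oocytes were inseminated with sperm of 5-month-old males, and embryos of both groups were collected 26 hr after insemination. Any difference between the groups can stem from the oocyte class or from maturation in culture, which cannot be told apart. Each array held embryo RNA amplified in several rounds. Whether each 2-cellNSN array had its own pool of embryos is not given in the sources used here, their spread may therefore be technical, and the control has no replicate.

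Polycomb group proteins keep developmental genes silent. PRC2 methylates a lysine of the tail of histone H3 through EZH2 or EZH1, which need EED and SUZ12 to be active, and JARID2 helps to bring the complex to chromatin. PRC1 attaches ubiquitin to histone H2A through the RING finger proteins RNF2 (RING1B) and RING1. Its other subunits include PHC1, BMI1 and CBX7, a chromodomain protein that reads the mark left by PRC2. Oocytes and early embryos of the mouse are known to use both complexes, and maternal PRC1 and PRC2 are needed after fertilisation.

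The deposited values are signals from which the background had been subtracted, so a probe without signal scatters around 0 and can be negative. The median signal was 0.0443 on 2-cellNSN-a, 0.0195 on 2-cellNSN-b and 0.0916 on the 2-cellctrl array. A probe was taken as above background when its signal reached the value at which the detection p value is 0.01, which was 8.57 on 2-cellNSN-a, an assumed 8.28 on 2-cellNSN-b and 6.10 on the control array. The limit was passed by 193 probes (0.751%) on 2-cellNSN-a, 203 (0.790%) on 2-cellNSN-b and 1086 (4.23%) on the control array. A gene is called above background in 2-cellNSN embryos where a probe of it passed on both arrays. Of the probes above the control limit, 912 (84.0%) were below the limit on both 2-cellNSN arrays. The 136 probes above the limits on all 3 arrays had a median ratio of 1.43 for 2-cellNSN-a and 1.39 for 2-cellNSN-b over the control array. They had to pass higher limits on the 2-cellNSN arrays than on the control array, a choice that favours such ratios. The ratios alone therefore give no direction for these probes, and how far the limits shaped them was not tested. The brightest probe reached 348 on each 2-cellNSN array and 2113 on the control array. The methods give a fixed amount of RNA as input to amplification and a normalisation between arrays. Fewer embryos in a sample, less RNA per embryo and weaker amplification or hybridisation cannot be told apart here. Of the oocyte and early embryo markers, 9 of 19 genes on the array were above background in the control and 1 on both 2-cellNSN arrays, and no marker of cumulus and granulosa cells (11 genes on the array), sperm and testis (8) or blood and endothelium (8) was above background in either group.

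Among the 10 Polycomb group genes, Suz12 was the only one above background on any array. Its signal was 0.896 on 2-cellNSN-a and -0.919 on 2-cellNSN-b, against 37.6 on the 2-cellctrl array. Both 2-cellNSN readings lay well within the bulk of probes, with 67.5% and 30.3% of the probes of the same array below them, whereas on the control array 99.3% of the probes were dimmer and 174 were brighter. The control reading was 6.17 times the control limit. SUZ12 is the zinc finger subunit of PRC2 that holds the complex together. Suz12 was measured by 1 probe, so no second probe of the gene bears on this reading.

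**Figure D1:**
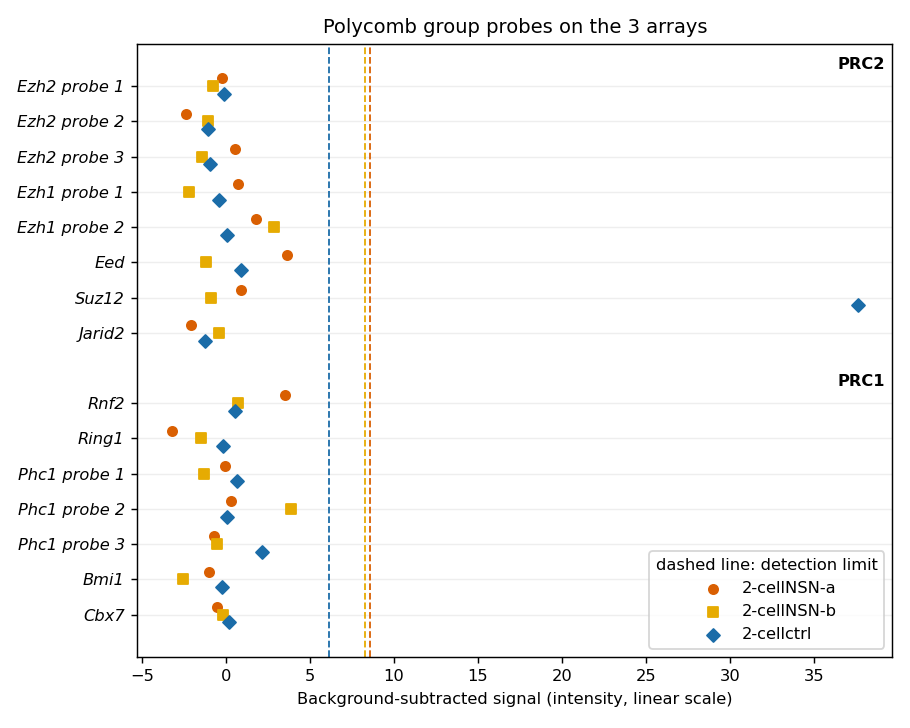
Background-subtracted signal (intensity, linear scale) of the 15 probes of the Polycomb group genes, by complex, with circles for 2-cellNSN-a, squares for 2-cellNSN-b and diamonds for 2-cellctrl. The dashed lines are the detection limits of 8.57, 8.28 and 6.10, and the Suz12 signal of 37.6 on the control array is the only point beyond its limit.

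For the fold, any reading below its limit was replaced by the limit, which makes the fold of Suz12 a lower bound. Since the 2-cellNSN limits are higher than that of the control, a probe below all of them gets a log2 difference of 0.46. The rule thus leans towards higher and against lower calls in 2-cellNSN embryos. With log2(signal + 16) in place of the floor, 596 probes were called lower and 31 higher, against 483 and 85 with the floor. The added 16 also shrinks differences, and its part in this change was not tested. Suz12 was at least 4.47-fold lower in 2-cellNSN than in 2-cellctrl embryos, beyond the fold of 1.5 that the methods use. Among 1106 probes above background in 2-cellNSN or control embryos, 483 (43.7%, or 1.88% of all probes) were at least 1.5-fold lower in 2-cellNSN embryos and 85 (7.69%, or 0.331% of all probes) at least 1.5-fold higher, and 163 of the lower probes had a larger bound than Suz12. The share of Polycomb group probes above the control limit, 1 of 15, stands beside 4.23% of all probes, and the call of Suz12 beside the 43.7% that were lower among probes above background. With limma on log2(signal + 16), in which signals under 0 were set to 0, Suz12 had a log2 difference of -1.71 (standard error 0.06) with an adjusted p of 0.0519, just short of the threshold of 0.05. In that fit 31.8% of all probes had both 2-cellNSN readings at 0 and hence a spread of exactly 0, which distorts the variance that limma shares between probes. With signals under 0 kept, a setting chosen after seeing the data, the log2 difference was -1.75 (standard error 0.13, 95% interval from -2.02 to -1.48) and the adjusted p from limma 2.02e-11. The 16 added to each signal shrinks such differences, so the limma values understate the change of dim probes, are not folds of the signal, and can be smaller than the bounds of the fold rule. In both fits the control is assumed to vary like the 2-cellNSN arrays, and this cannot be checked with 1 control array. With signals under 0 kept, 793 probes (3.09%) were lower and 53 (0.206%) higher at an adjusted p under 0.05, and with them set to 0 the counts were 1225 (4.77%) and 12 (0.0467%).

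The catalytic subunits of PRC2 were below background at all of their probes. Of the 3 probes of Ezh2, the methyltransferase of dividing cells, the first (ILMN_1234171) gave -0.242 and -0.796 on the 2-cellNSN arrays and -0.131 on the control array. The second (ILMN_2606429) gave -2.39 and -1.10 in 2-cellNSN embryos and -1.10 in the control. The third (ILMN_2988572) gave 0.513 and -1.42 in 2-cellNSN embryos and -0.963 in the control. None of the Ezh2 readings exceeded 0.513 on any array, so neither group showed signal for this gene at this sensitivity. For Ezh1, the second methyltransferase, the first probe (ILMN_2773467) gave 0.689 and -2.21 in 2-cellNSN embryos and -0.433 in the control. Its second probe (ILMN_3107974) gave 1.76 and 2.85 in 2-cellNSN embryos and 0.0302 in the control, so that both 2-cellNSN readings lay above the control one, but all 3 were under the limits. The log2 difference of this probe was 0.19 with signals under 0 kept (95% interval from -0.10 to 0.48, adjusted p = 0.999 from limma).

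Eed and Jarid2, which encode the non-catalytic subunits besides Suz12, were also below background. EED binds the methylated tail that PRC2 produces. Its probe gave 3.63 and -1.17 on the 2-cellNSN arrays and 0.886 on the control array. The 2-cellNSN readings of Eed thus fell on both sides of the control reading, and 94.8% and 25.3% of probes were dimmer on the array concerned. Jarid2 gave -2.12 and -0.424 in 2-cellNSN embryos and -1.26 in the control, again with the control reading between the others.

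No PRC1 gene among the Polycomb group genes described here was above background on any array. The paper, in contrast, places Rnf2 (as RING1B) and Phc1 in a network of genes expressed at both the MII and the 2-cell stage. With the same detection and fold thresholds, it also reports more regulated genes between these groups than the probes called here. The reason for these differences from the paper was not tested. Rnf2, the main ubiquitin ligase of PRC1 in mouse embryonic stem cells, gave 3.52 and 0.732 on the 2-cellNSN arrays and 0.559 on the control array. The paralogous ligase Ring1 gave -3.24 and -1.48 in 2-cellNSN embryos and -0.210 in the control. Both Rnf2 readings in 2-cellNSN embryos were above the control and both Ring1 readings below it, all under the limits. Bmi1, which pairs with these ligases, gave -0.992 and -2.57 in 2-cellNSN embryos and -0.227 in the control. Cbx7 gave -0.536 and -0.156 in 2-cellNSN embryos and 0.143 in the control.

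The 3 probes of Phc1, a polyhomeotic subunit that lets PRC1 complexes join to each other, did not move together. The first (ILMN_2773464) gave -0.0871 and -1.32 in 2-cellNSN embryos and 0.663 in the control. The second (ILMN_3064382) gave 0.316 and 3.86 in 2-cellNSN embryos and 0.0802 in the control, and the third (ILMN_3142248) gave -0.719 and -0.553 in 2-cellNSN embryos and 2.16 in the control. Both 2-cellNSN readings of ILMN_2773464 and of ILMN_3142248 were under the control reading, and both of ILMN_3064382 were over it. The control signal of 2.16 was the highest of the 14 probes other than that of Suz12, with 84.5% of the control array's probes dimmer, and it was still under the limit of 6.10. The log2 differences with signals under 0 kept were -0.12, 0.16 and -0.24 for the first, the second and the third probe, and the adjusted p from limma was 0.999, 0.999 and 0.901.

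**Figure D2:**
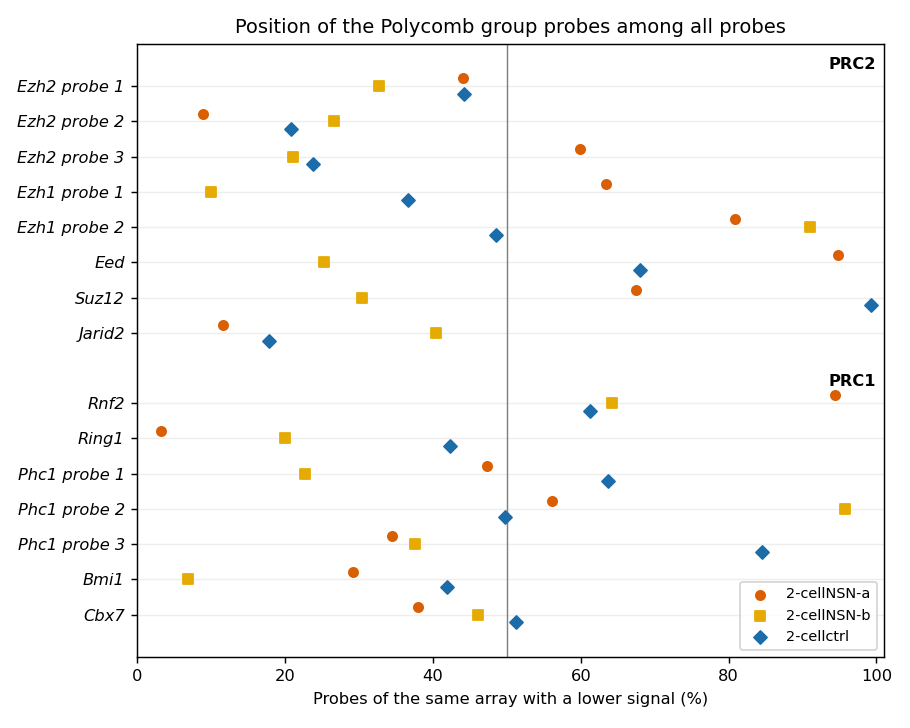
Percentage of all probes of the same array with a lower signal than each Polycomb group probe, with circles for 2-cellNSN-a, squares for 2-cellNSN-b and diamonds for 2-cellctrl, and a line at the median of the array. The other 14 probes were spread between 3.25% and 94.8% on 2-cellNSN-a, 6.82% and 95.7% on 2-cellNSN-b and 17.8% and 84.5% on the control array, and Suz12 stood at 99.3% on the control array.

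Apart from Suz12, the Polycomb group probes scattered around 0 on all 3 arrays. Over these 14 probes, which stand for 9 genes, the signal ran from -3.24 to 3.63 on 2-cellNSN-a, from -2.57 to 3.86 on 2-cellNSN-b and from -1.26 to 2.16 on the control array. Their medians were -0.165, -0.951 and -0.0505, and 8, 11 and 7 of them were negative. At a detection p value of 0.05, which lets through 6.64% of all probes on 2-cellNSN-a, 7.04% on 2-cellNSN-b and 10.6% on the control array, Eed and Rnf2 were above the limit on 2-cellNSN-a only and the second Phc1 probe on 2-cellNSN-b only. No probe passed on both 2-cellNSN arrays, and on the control array Suz12 was still alone. Ordered by control signal, Suz12 (37.6) came first, followed by the third Phc1 probe (2.16), Eed (0.886), the first Phc1 probe (0.663) and Rnf2 (0.559). From the second place on all readings were under the control limit, so their order lies within background. Such an order between probes does not rank the transcripts, since probes differ in how well they bind.

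**Figure D3:**
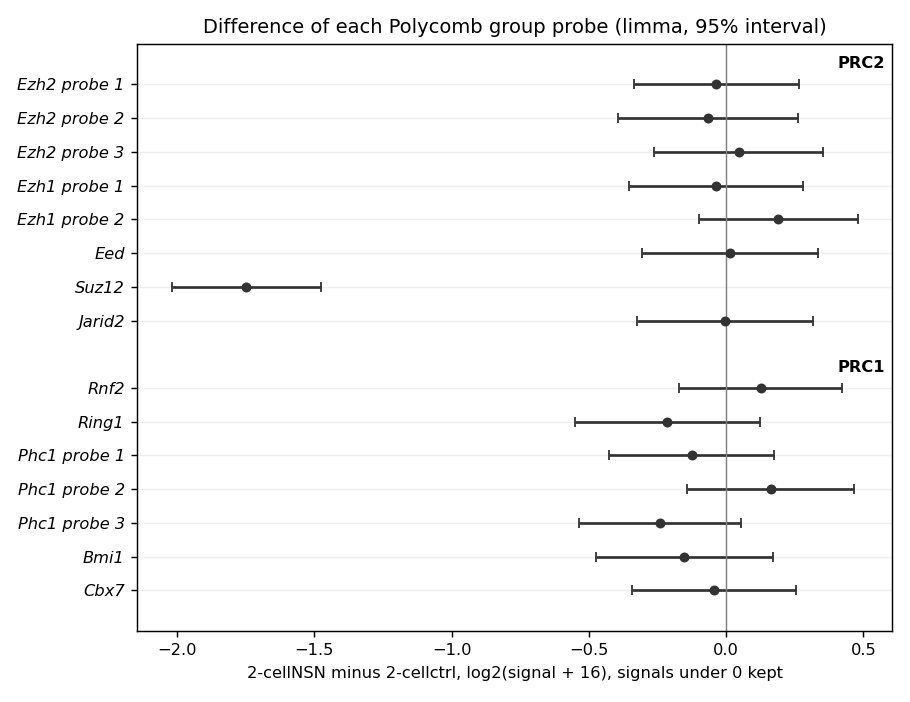
Difference between 2-cellNSN and 2-cellctrl embryos of each Polycomb group probe, on log2(signal + 16) with signals under 0 kept, as points with 95% intervals from limma. Suz12 lay at -1.75, and the intervals of the other 14 probes all included 0 and lay between -0.55 and 0.48.

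Between the complexes, PRC2 had 1 of 8 probes above background and lower, that of Suz12, and PRC1 had 0 of 7. With signals under 0 kept, limma called the same PRC2 probe and no PRC1 probe, and no PRC1 probe had an unadjusted p under 0.05, against 7.43% of all probes. The median log2 difference was -0.020 over the PRC2 probes (-0.0039 without Suz12), -0.12 over the PRC1 probes and -0.011 over all probes on the array. With signals under 0 set to 0, the medians were 0.011 for PRC2, 0.00 for PRC1 and 0.00 for all probes. An unadjusted p under 0.05 from limma was then reached by 1 of 8 PRC2 and 3 of 7 PRC1 probes, against 15.9% of all probes. Both 2-cellNSN readings of these 3 PRC1 probes had been set to 0. In that fit 1 PRC1 probe was called, that of Cbx7, with a log2 difference of -0.013 (adjusted p = 0.0343 from limma), since both of its 2-cellNSN readings had been set to 0. With those readings kept, Cbx7 had a difference of -0.045 (adjusted p = 0.999 from limma). The 2 complexes thus differed by the single Suz12 reading, and the other subunits give no levels from which the complexes could be compared.

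Of the further genes of both complexes, 2 were above background, both in PRC1 and both in the control only. Phc2, a polyhomeotic paralogue of Phc1, had signals of 2.99 and -0.966 in 2-cellNSN embryos and 21.1 in the control, at least 2.51-fold lower by the fold rule (on log2(signal + 16), with signals under 0 kept, the difference was -1.13 with a standard error of 0.14 and an adjusted p of 9.04e-07 from limma). Auts2, a subunit of a PRC1 variant described in the nervous system, was above background at 1 of its 3 probes, with -3.94 and -4.29 in 2-cellNSN embryos and 20.4 in the control. It was at least 2.43-fold lower by the fold rule (on the same log2 scale the difference was -1.62 with a standard error of 0.14 and an adjusted p of 5.07e-10 from limma). With signals under 0 set to 0 the adjusted p was 0.239 for Phc2 and 0.0345 for Auts2. These were 2 of 20 further PRC1 genes on the array, which have 29 probes, and all others, such as Pcgf1, Pcgf6, Kdm2b and Cbx2, were below background. Over all probes on the array, 4.23% were above the control limit, so counts this small do not set PRC1 apart from the 17 probes of the further PRC2 genes. All 8 further PRC2 genes on the array, including the histone-binding subunit Rbbp7 and the cofactors Aebp2, Mtf2 and Phf19, were below background too. The 6 genes on the array listed for removing Polycomb marks, such as the demethylases Kdm6a and Kdm6b and deubiquitinases Bap1 and Usp16, were likewise.

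Of the Trithorax group, whose complexes methylate another lysine of histone H3 and oppose Polycomb silencing, 1 of 8 genes on the array (16 probes) was above background, beside 4.23% of all probes above the control limit. Dpy30, a small shared subunit of these methyltransferases, had signals of 2.77 and 1.33 in 2-cellNSN embryos and 28.5 in the control, at least 3.39-fold lower by the fold rule (on log2(signal + 16), with signals under 0 kept, the difference was -1.30 with a standard error of 0.13 and an adjusted p of 8.18e-09 from limma, and with them set to 0 the adjusted p was 0.0972). Suz12, Phc2, Auts2 and Dpy30 had the same pattern, a signal over the limit in the control and under it on both 2-cellNSN arrays, which 84.0% of all probes above the control limit share. Of 28 developmental genes on the array that Polycomb complexes silence in embryonic stem cells, such as Hox genes, Gata4, Gata6, Pax6 and Cdx2, none was above background in either group. They have 38 probes, and with 4.23% of all probes above the control limit this does not show that they were silent.

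Of the 9 oocyte and early embryo markers above background in the control, 6 were lower in 2-cellNSN embryos by the fold rule, as Suz12 was, and none was higher. Bmp15, a growth factor secreted by the oocyte, had signals of 5.49 and 4.61 in 2-cellNSN embryos and 102 in the control, at least 12.1-fold lower. Tcstv3, a gene expressed at the 2-cell stage, had 4.82 and 2.67 in 2-cellNSN embryos and 41.6 in the control, at least 4.94-fold lower. Ooep, of the subcortical maternal complex, was the only marker above background on all 3 arrays, with 11.1 and 8.99 in 2-cellNSN embryos and 24.1 in the control, 2.42-fold lower. Gdf9, Tcstv1 and Nlrp5 were also at least 1.5-fold lower, Nlrp5 at 1 of its 3 probes with a bound of 1.52 (adjusted p = 0.474 from limma with signals under 0 kept). Zp3, Dppa3 and Bcl2l10 were above background in the control without reaching a bound of 1.5. Their 2-cellNSN readings were floored at limits that are higher than the control limit. With signals under 0 kept, limma gave them log2 differences of -0.72, -0.67 and -0.56 (adjusted p = 0.000645, 0.00232 and 0.0149). With signals under 0 set to 0, the adjusted p from limma was 0.0745, 0.0671 and 0.0734. The summed signal of the list (negative readings counted as 0) was 38.0 and 33.4 on the 2-cellNSN arrays and 268 on the control array. The part of this general difference in the Suz12 result was not tested.

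**Figure D4:**
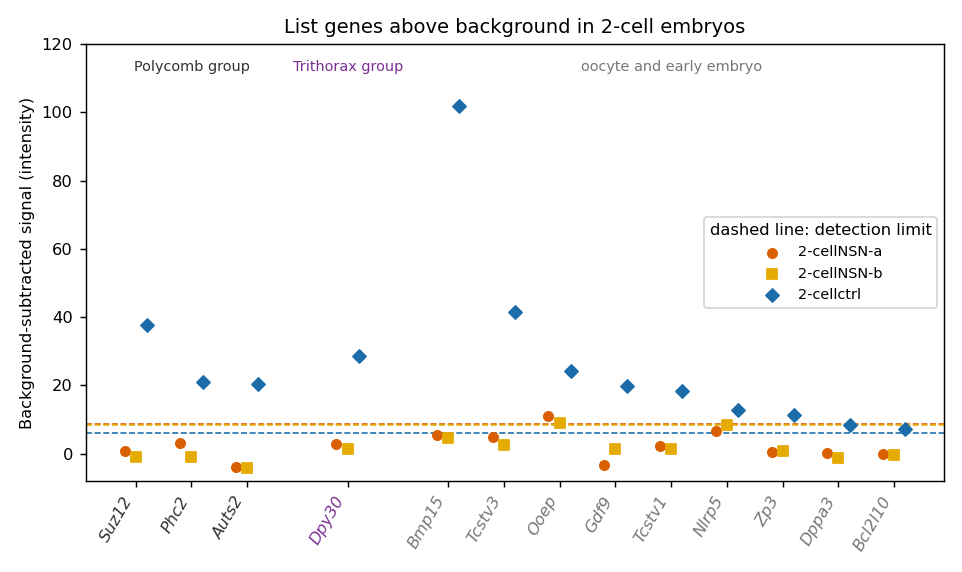
Background-subtracted signal (intensity) of the genes above background among the Polycomb group, Trithorax group and oocyte and early embryo lists, with circles for 2-cellNSN-a, squares for 2-cellNSN-b and diamonds for 2-cellctrl, and dashed lines at the detection limits. Suz12, Phc2, Auts2 and Dpy30 were over the limit in the control only, as were all markers drawn other than Ooep and, on 2-cellNSN-b, Nlrp5.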

How the data were processed

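The values used are the background-subtracted intensities of the value table that the authors deposited for the 3 arrays, on a linear scale. Per the methods, signals were background-subtracted, normalised with the rank invariant algorithm and filtered on negative control beads, with BeadStudio 3 named in the submitters' processing notes. How arrays were scaled to each other is not known beyond this. A second table was left out, since the names of its 3 value columns fit no sample label. Probes were named from the platform annotation, in which 23978 of 25697 probes have 1 symbol, 0 have several and 1719 have none here. Genes of the further lists without such a symbol were looked up through RefSeq gene IDs.

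The deposited table holds no detection p value. Each limit is the lowest deposited signal whose detection p value was 0.01 or less in the study's table of 2-cell signals, of which 1188 rows were held. 896 rows matched exactly 1 probe on 2-cellNSN-a and the control array within 0.002%, and 0 matched 2-cellNSN-b, whose limit is that of 2-cellNSN-a scaled by the spread of signals below the median (root mean square 1.74 on 2-cellNSN-b and 1.80 on 2-cellNSN-a).

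A probe was called when it was above its limit in the control or on both 2-cellNSN arrays and differed at least 1.5-fold (mean of both 2-cellNSN arrays on the log2 scale, signals floored at the limits). limma 3.58.1 in R 4.3.3 was fitted over all 25697 probes on log2(signal + 16), signals under 0 set to 0, with an intensity trend, 1 residual degree of freedom and Benjamini-Hochberg adjustment. Counts were made with pandas 2.3.3 and numpy 2.4.6 and plots with matplotlib 3.10.9, under Python 3.11.15. The small number of arrays limits the precision. Alternatives changed the limits, offset, normalization, fold, filter, probe averaging, trend and 2-cellNSN array. All members were named at every probe, and of the other lists each gene above background. No member was above background on all 3 arrays, so no genes of like pattern were sought. The members and lists were chosen with earlier results of these data known.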

Additional observations from a re-analysis of the deposited data

How the results depend on the processing

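Suz12 stayed at least 1.5-fold lower in 2-cellNSN embryos under all 10 alternatives of the fold rule, with log2 differences from -3.54 (limits at a detection p value of 0.05) to -1.02 (normexp and quantile), and no other Polycomb group probe was called under any of them. Not all of these could change its value. A fold of 2 and averaged probes left it at -2.16, and dropping the filter left it at the -1.71 of log2(signal + 16). Lower limits can only enlarge its floored fold. All of them rest on the same single control reading. Without one 2-cellNSN array or the other its difference was -2.18 or -2.13. In limma the adjusted p of Suz12 ran from 2.02e-11 to 0.110 over 7 settings and was under 0.05 in 4 (signals under 0 kept, log2(signal + 64), normexp and quantile, rescaled 2-cellNSN arrays). Member probes called by limma numbered 3 with log2(signal + 64), 2 after rescaling and 2 without a trend, against 1 (Cbx7) with log2(signal + 16). The added calls were Suz12 and the first Phc1 probe (difference -0.015, adjusted p = 0.0497) with log2(signal + 64), Suz12 after rescaling, and without a trend the first and the third Phc1 probe (adjusted p = 0.0374 and 0.0239), Cbx7 being lost. Over all probes, the fold rule called 1083 lower and 233 higher of 2932 above background with limits at a p value of 0.05, 826 and 160 of 2156 with limits from the deposited table alone, and 314 and 142 with normexp and quantile, against 483 and 85 of 1106. Higher calls fell to 31 with log2(signal + 16), filtered or not, 35 after rescaling and 37 at a fold of 2. limma called 793 lower and 53 higher with signals under 0 kept, 225 and 43 with normexp and quantile, 32 and 56 over the 136 probes above background on all 3 arrays, 1975 and 92 without a trend, and 4 higher with log2(signal + 4). The PRC1 median moved to -0.040 with normexp and quantile and to -0.12 with signals under 0 kept, and the PRC2 median to -0.020 with signals under 0 kept. The causes were not tested. No paired analysis was possible because there was only 1 control array. No limma value could be had without one 2-cellNSN array, as no residual degree of freedom is left. Below the limits a signal gives no level, so a transcript of the other 9 genes was not detectable here, which does not show that it was absent.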
